A study of Mus musculus with 18 samples.

Results

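This account covers 9 mouse genes that mark pigment cells and the retinal pigment epithelium: Tyr, Tyrp1, Dct, Pmel, Slc45a2, Mlana, Mitf, Ttr and Best1. Their members on the array were the probe sets that the platform annotation assigns to 1 of these genes alone, 18 of 45101 probe sets, and each was read in all 18 arrays. No threshold on measured values entered the choice of probe sets, but the 9 genes were chosen with earlier results of these data known. The arrays held total RNA from the retina of Rpe65-/- mice and of C57BL/6 mice. Animals of each genotype were 2, 4 or 6 months old, with 3 retinas in each of the 6 groups. The series' design text calls the 3 retinas of a group biological replicates, and nothing in the labels says whether any 2 came from 1 animal, so the p-values measure the spread between these retinas. The labels do not give the strain background of the knockouts, nor whether the pigment epithelium was taken off the retina before extraction.

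The retinal pigment epithelium is a single pigmented cell layer that lies against the photoreceptors, supplies their retinoid and takes up their shed outer segments. Melanin is made in melanosomes, where tyrosinase (Tyr) starts the synthesis and the related enzymes encoded by Tyrp1 and Dct act on later intermediates. The transcription factor Mitf binds a short E-box variant, the M-box, in promoters of the melanin enzymes. Rpe65, the gene removed here, encodes the retinoid isomerase of the pigment epithelium. In a bulk sample of retina, fewer cells of a type and less RNA per cell cannot be told apart.

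The M-box stretches of the 3 melanin enzymes are shown because these 3 genes moved together from retina to retina. They come from the RefSeq promoter table (build GRCm38.p6), whose promoters have 300 bases each, with 250 before the start and 50 after it. The search covered 7 promoters of 5 of the 9 genes. No promoter of Pmel, Slc45a2, Mlana or Ttr was searched. Capitals mark the letters TCATGTG, searched on both strands, and each run ends at or before the start site.
Tyr: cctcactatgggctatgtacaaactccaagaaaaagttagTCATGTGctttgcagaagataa
Tyrp1: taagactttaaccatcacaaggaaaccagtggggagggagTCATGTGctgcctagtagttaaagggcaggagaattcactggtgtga
Dct: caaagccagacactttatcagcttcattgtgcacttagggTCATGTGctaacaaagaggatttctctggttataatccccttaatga
The Tyr run lies at chr7:87493513-87493574 on the minus strand, and its match begins 22 bases before the start. The Tyrp1 run lies at chr4:80834126-80834212 on the plus strand, with its match 47 bases before the start. The Dct run lies at chr14:118052351-118052437 on the minus strand, with its match 151 bases before the start, and a further match on the opposite strand lies 232 bases before it. Of all 32851 promoters in the table, 3.77% held TCATGTG on either strand. The letters were not in the window of Best1 or in the 3 windows of Mitf. A match describes the letters and is not a measured binding site, and a part of Mitf in the shared movement was not tested.

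Values are given below as array-scaled signals. These are linear signals recovered from the deposited ratios and brought to a common array median of 12.55. Tests ran on the log2 of the deposited ratios. A gene with several probe sets is described by the one of highest mean signal unless a probe set is named. Before scaling, the median signal was 32.8 to 45.8 on the 6 arrays at 6 months and 6.8 to 14.3 on the other 12, so age of 6 months and the brighter arrays cannot be told apart. The retina label was borne out by rod genes, whose 7 measured markers summed to between 11946 and 20485 on every array. Rpe65 itself was 0.348 to 8.15 in the 9 knockout retinas. It was 339 in control retina 10, 6.09 in retina 11 and 17.4 in retina 9 at 2 months, and 24.9 to 467 in the 6 older controls. So the lowest control was below the 2 highest knockouts, both at 4 months, and the other 8 controls were above all knockouts. Summed signals of 16 lens genes ran from 39.0 to 33436, and the highest value belonged to knockout retina 3 at 2 months.

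The melanin enzymes were above the array median in most retinas and near or below it in control retinas 9 and 11 at 2 months. Dct, dopachrome tautomerase, read 48.7, 65.0 and 188 in the knockouts of 2 months, 190, 147 and 476 in those of 4 months, and 132, 247 and 154 in those of 6 months. The controls read 241, 17.5 and 11.6 (2 months, retinas 10, 11 and 9), 94.1, 118 and 214 (4 months), then 217, 251 and 246 (6 months). The control retinas at 2 months therefore ran from the lowest control value to close to the highest, and the genotypes overlapped at every age. The highest Dct signal was in knockout retina 33 at 4 months.

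Tyrp1, tyrosinase-related protein 1, had 3 probe sets, and in each the lowest 2 retinas were control retinas 9 and 11 at 2 months and the highest was knockout retina 33. In knockouts the brightest read 23.0, 28.5 and 61.0 (2 months), 54.7, 64.0 and 130 (4 months), then 54.1, 61.8 and 48.5 (6 months). The control values were 62.6, 6.46 and 2.44 in the youngest group, 25.7, 35.5 and 81.8 in the middle one, and 93.7, 42.8 and 105 in the oldest. Control retinas 9 and 11 were the only arrays in which it was under the array median, and the genotypes overlapped at every age.

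Tyr, tyrosinase itself, was read best by probe set 1417717_a_at. Knockouts gave 14.1, 15.0 and 24.9 when 2 months old, 48.4, 39.99 and 71.0 when 4 months old, and 42.7, 71.4 and 46.8 when 6 months old. The controls gave 45.9, 4.24 and 0.325, then 12.4, 22.1 and 51.5, and then 19.3, 19.97 and 46.3 in the same order of ages. The value of 0.325, in control retina 9, is the lowest that the deposited table could hold for this probe set, so it is only a bound. The other Tyr probe sets were dim, which means that their median signal was under 10 and that the deposited ratio used a fixed divisor of 10. Of these, 1456095_at read 19.3, 21.3 and 21.6 in the knockouts at 4 months and 1.64, 2.55 and 6.02 in the controls. Its knockout retinas lay above all 3 controls at 4 and at 6 months, and so did those of 1448821_at.

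Among the other melanosome genes, Pmel, which forms the fibrils on which melanin is laid down, ranged from 1.11 in control retina 11 to 170 in knockout retina 33. Mlana, a melanosome protein of pigment cells, ranged from 0.731 in control retina 9 to 80.1 in knockout retina 33. Slc45a2, a melanosomal transporter, was closer to the array median. Its brighter probe set ranged from 1.84 to 18.8 and was above the array median in 7 of 18 arrays, and the other one in 0 of 18. At 6 months the brighter one read 18.8, 13.3 and 17.9 in the knockouts and 3.92, 10.6 and 9.03 in the controls, without overlap.

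Mitf, the transcription factor, varied least. Probe set 1455214_at ranged from 23.99 in control retina 11 to 63.3 in knockout retina 33, which is a 2.64-fold span, against 41.1-fold for Dct and 53.2-fold for the brightest Tyrp1 probe set. The second Mitf probe set, 1422025_at, read 12.55, 13.0 and 12.7 in the knockouts at 2 months. The controls of that age read 28.2, 23.4 and 24.98, so all 3 knockouts were below all 3 controls there. At 4 months the knockouts read 21.2, 22.3 and 24.3 and the controls 9.03, 16.6 and 24.97, and the genotypes overlapped.

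Ttr encodes transthyretin, a carrier of thyroid hormone and retinol-binding protein that the pigment epithelium makes. The brightest of its 4 probe sets, 1454608_x_at, read 1173, 1412 and 1306 in the youngest knockouts, 3626, 3315 and 3194 in those of 4 months, and 3287, 3986 and 3690 in the oldest. The controls read 3119, 214 and 325 (2 months), 972, 2083 and 3381 (4 months), then 2792, 3272 and 3219 (6 months). The knockout retinas of each age lay close together and the controls of 2 and 4 months did not. Best1, the bestrophin channel of the pigment epithelium's basal membrane, was below the array median in all 18 arrays, at 0.446 to 4.09. Its single probe set was dim, so the data do not show Best1 as a marker here.

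**Figure D1:**
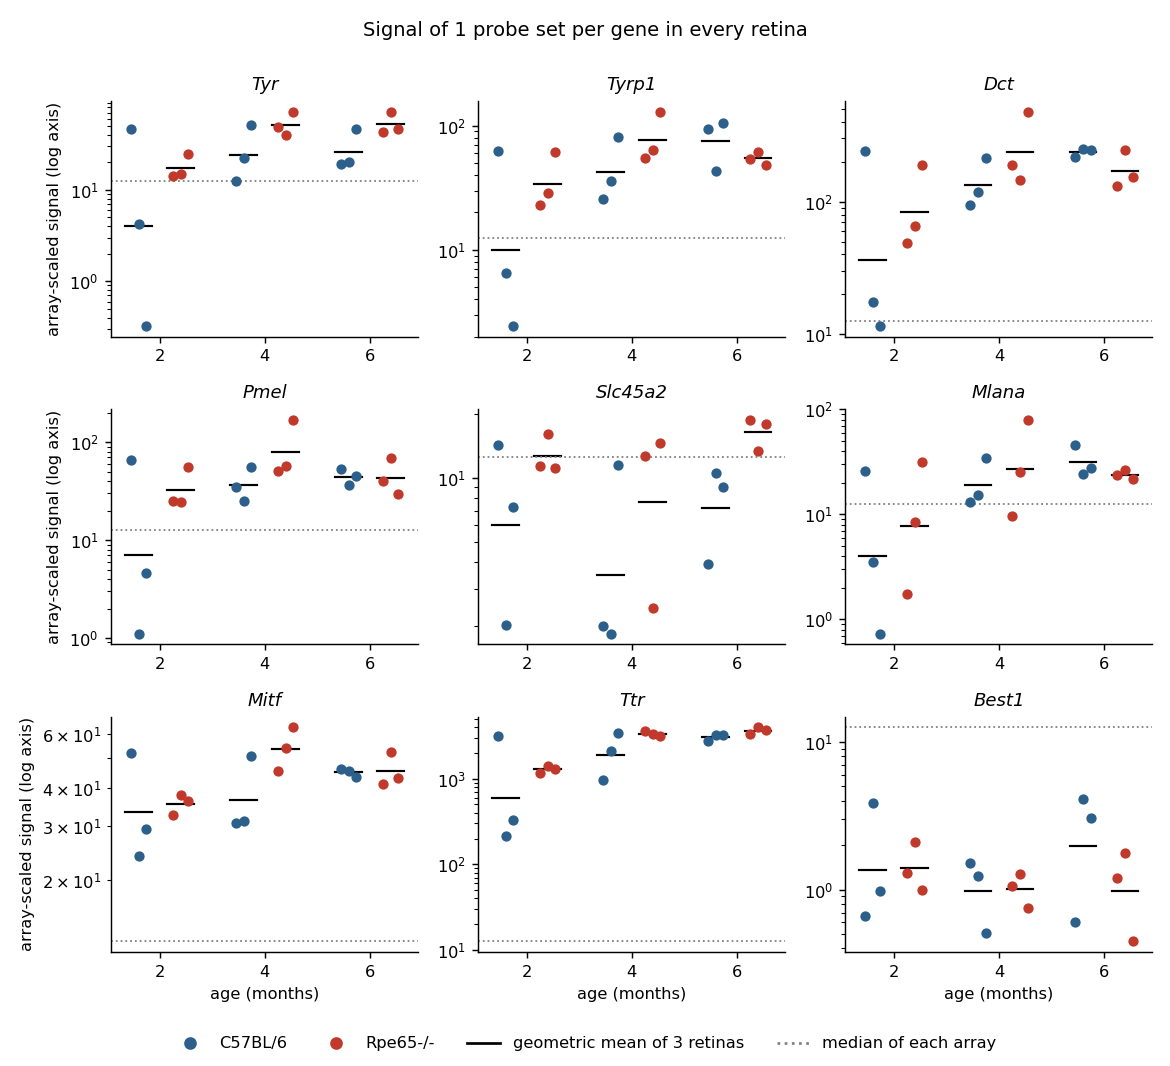
Array-scaled signal on a log axis for the probe set of highest mean signal of each gene, by age in months; each point is 1 retina, the black line is the geometric mean of 3 retinas and the dotted line is the array median of 12.55. Blue control points at 2 months are split between retina 10 and the lower retinas 9 and 11 for 8 of the 9 genes; Best1 stays under the dotted line.

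The spread between retinas of 1 group was the main feature of these genes. For Dct the SD of log2 ratios within groups was 1.16, against a median of 0.25 over all probe sets that were not dim. Every member probe set outside Mitf had an SD at or above the percentile of 98.7 of that distribution, and the Mitf probe sets were at percentiles 73.2 and 69.6. The 4 dim members, Best1 among them, were ranked there too, though no dim probe set is part of that distribution. Their percentiles are therefore not set against probe sets of like signal. At 2 months the SD of Dct was 2.38 in controls and 1.03 in knockouts, while at 4 months it was 0.61 and 0.89, and at 6 months 0.11 and 0.47. For Pmel the controls also had the smaller SD at the later ages, 0.59 against 0.97 at 4 months and 0.28 against 0.62 at 6 months. Pooled over the ages, for Ttr 1454608_x_at the SD within groups was 0.12 in knockouts and 1.31 in controls, and for Tyr 1417717_a_at it was 0.42 and 2.19. The difference in spread between the genotypes was not tested. Mlana had like spreads of 1.498 in knockouts and 1.576 in controls.

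The genes were then compared pair by pair, on log2 ratios with each group's mean removed, so that a correlation reflects retinas of 1 group and not age or genotype. P-values came from an exact permutation test, two-sided, over all 46656 orders of retinas within groups and were adjusted over 36 pairs. Of these pairs, 28 had a positive r and 7 passed. Tyr, Tyrp1, Dct and Mlana formed all 6 pairs among themselves, and Pmel with Mitf was the seventh. Tyr and Dct had r = 0.86 and rho = 0.68 (n = 18, exact permutation p = 0.000107, adjusted 0.00386). Tyrp1 and Mlana had r = 0.88 and rho = 0.88 (n = 18, exact permutation p = 0.000214, adjusted 0.00386). Tyrp1 and Dct had the highest r, 0.93, with rho = 0.80 (n = 18, exact permutation p = 0.00146, adjusted 0.0131).

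The other pairs past the threshold were as follows. Tyr and Tyrp1 had r = 0.93 and rho = 0.77 (n = 18, exact permutation p = 0.00126, adjusted 0.0131). Dct and Mlana had r = 0.87 and rho = 0.75 (n = 18, exact permutation p = 0.00225, adjusted 0.0162). Pmel and Mitf had r = 0.87 and rho = 0.77 (n = 18, exact permutation p = 0.003, adjusted 0.018). Tyr and Mlana had r = 0.77 and rho = 0.61 (n = 18, exact permutation p = 0.00847, adjusted 0.0435), and on ranks this pair did not pass, with an adjusted exact permutation p of 0.0931. On rho 12 of the 36 pairs passed. Mitf did not pass on r with Tyr, Tyrp1 or Dct (adjusted exact permutation p = 0.268, 0.101 and 0.0525). On rho Mitf passed with Tyrp1 and with Dct (adjusted exact permutation p = 0.0323 for each) and not with Tyr (0.232).

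The 2 retinas farthest from the median of a pair's first gene were then left out. So 15 of 36 pairs had an unadjusted exact permutation p under 0.05, these 7 among them. Among these 7, r ranged from 0.49 for Tyr with Mlana, which had 0.77 with all retinas, to 0.83 for Tyr with Tyrp1. For these 7 pairs r and p were the same as without all 3 control retinas of 2 months, so the 2 checks are not separate. Within the 12 arrays of 2 and 4 months, r was 0.87 for Tyr with Dct and 0.97 for Tyrp1 with Dct, and 7 of 36 pairs passed after adjustment. Within the 6 brighter arrays of 6 months, r was 0.55 and 0.06 for these pairs, and 0 of 36 passed by the adjusted exact permutation test. There 1 pair had an unadjusted p under 0.05, and 0.0278 is the smallest p that design allows. After adjustment, 7 pairs passed without all 3 control retinas of 2 months. Of these, 4 were among the 7 named above, so that 3 of the 7 lost their call. Without single retinas, 2 to 13 pairs passed. The lowest count, 2, came without control retina 24 at 4 months, and 4 pairs passed without control retina 10 at 2 months. The count was 13 without control retina 9 or 11 at 2 months and 11 without control retina 1 at 6 months.

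**Figure D2:**
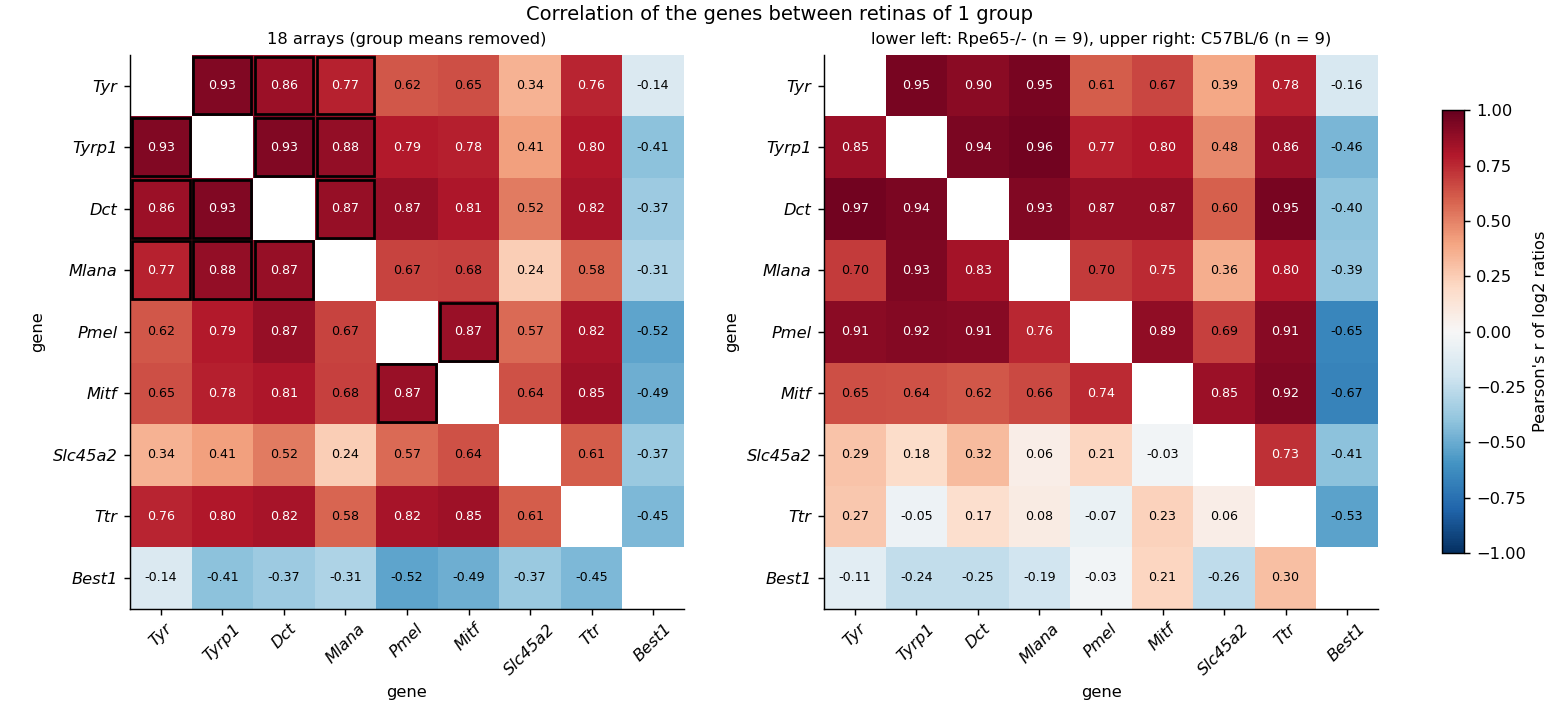
Pearson's r between genes over log2 ratios with group means removed; the left panel uses 18 arrays, with black frames around the 7 pairs past the threshold, and the right panel shows 9 Rpe65-/- arrays in its lower left and 9 C57BL/6 arrays in its upper right. Tyr, Tyrp1, Dct and Mlana form a block of framed cells, and the Ttr row is pale in the knockouts and red in the controls.

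Among the melanin enzymes r was at or above 0.85 in each genotype, though 0 of 36 pairs passed the exact permutation test after adjustment in either genotype alone. With 216 orders of 9 retinas the smallest possible p is 0.00463. A single pair at that p does not pass after adjustment over 36 pairs, so this count shows little. Dct and Tyrp1 had r = 0.94 in 9 knockout retinas and 0.94 in 9 control retinas, with exact permutation p-values of 0.0185 and 0.0324. Tyr and Tyrp1 had 0.85 and 0.95 (exact permutation p = 0.0278 and 0.0185), and Tyr and Dct 0.97 and 0.90 (exact permutation p = 0.00463 and 0.0417), all unadjusted. Ttr did not follow this in the values: its r with Dct was 0.17 in knockouts and 0.95 in controls, and with Pmel -0.07 and 0.91. Over all 18 arrays Ttr with Dct had r = 0.82 and rho = 0.63 (n = 18, exact permutation p = 0.0419, adjusted 0.116). The difference in r between the genotypes was not tested. Best1 had a negative r with each of the other 8 genes, from -0.52 to -0.14, none past the threshold.

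**Figure D3:**
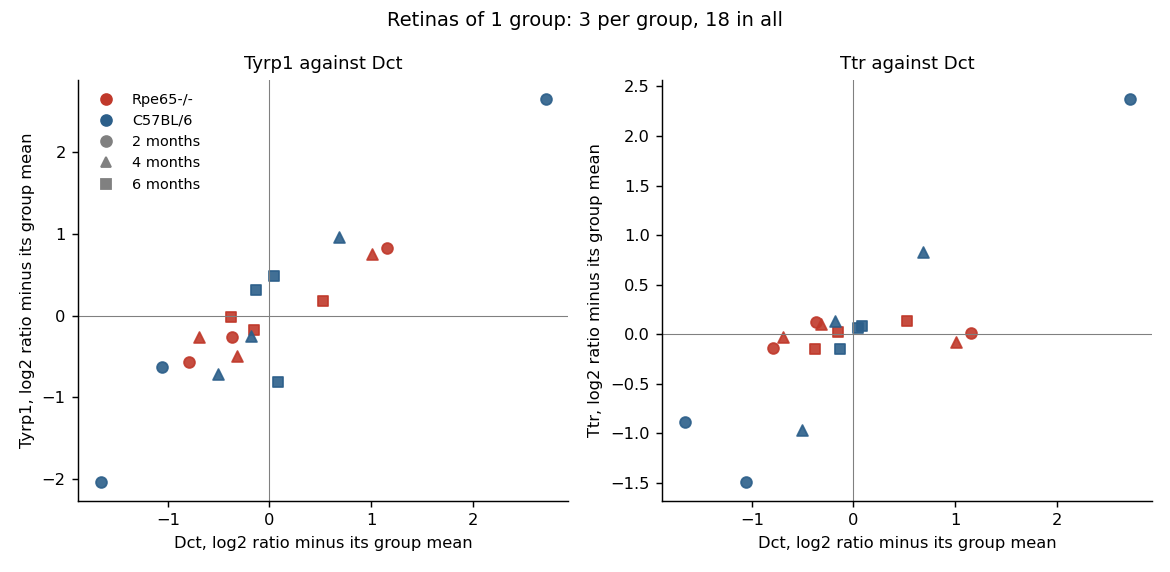
Log2 ratio minus its group mean for Tyrp1 (left) and Ttr (right) against Dct; each point is 1 of 18 retinas, red for Rpe65-/- and blue for C57BL/6, with the marker giving the age. Tyrp1 follows Dct in both colours, while the red points of Ttr stay near 0 across the range of Dct.

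Probe sets of 1 gene were compared in the same way over 14 pairs, since they share a target. The 6 pairs of Ttr probe sets had r of 0.987 or more, with adjusted exact permutation p-values of 0.0003 to 0.00105. The 3 Tyrp1 pairs had r of 0.86 to 0.92, the Slc45a2 pair 0.59 and the Mitf pair 0.64, all past the threshold. Tyr 1417717_a_at followed 1456095_at with r = 0.98. Tyr 1448821_at followed neither, with r of 0.18 and 0.22 (n = 18, adjusted exact permutation p = 0.749 and 0.733). In control retina 9 at 2 months it read 6.95, where the other 2 Tyr probe sets read 0.325 and 0.122.

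In the 9 control retinas Rpe65 was set beside the members as well. Ttr had the highest r with it, 0.97, with rho = 0.95 (n = 9, exact permutation p = 0.00926, adjusted over 9 genes 0.0833). Dct had r = 0.86 and rho = 0.87 (n = 9, exact permutation p = 0.0463, adjusted 0.139), and Mitf had r = 0.91. So 0 of 9 passed after adjustment by the exact permutation test, and 3 had an unadjusted p under 0.05. Without the 2 retinas farthest from the median of Rpe65 the r of Ttr was 0.98, with an exact permutation p of 0.0556.

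Genotypes were compared with limma on all 45037 probe sets that are not array controls. Averaged over the 3 ages, 0 of 18 member probe sets passed at an adjusted p of 0.05, where 4.27% of all probe sets did. At an unadjusted p under 0.05, 3 of 18 were found (both dim Tyr probe sets and Slc45a2 1451055_at), beside 16.3% of all. The log2 difference, knockout minus control, was positive for 16 of 18, with a median of 0.79 against 0.00 over all probe sets. Since probe sets of a gene share a target and the genes moved together between retinas, these 16 are not separate observations.

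The lowest adjusted p belonged to Tyr 1456095_at, whose log2 difference was 2.27 ± 0.64 (SE, limma adjusted p = 0.0684). Tyr 1417717_a_at differed by 1.41 ± 0.70 (limma adjusted p = 0.351) and Dct by 0.52 ± 0.52 (limma adjusted p = 0.691). The 95% interval for Dct ran from -0.60 to 1.64, so that neither a lower level nor a 3-fold higher one lay outside it. For Ttr 1454608_x_at the difference was 0.72 ± 0.42 and its interval ran from -0.17 to 1.62. Mitf had the narrowest intervals, from -0.39 to 0.30 for 1422025_at and from -0.11 to 0.55 for 1455214_at.

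**Figure D4:**
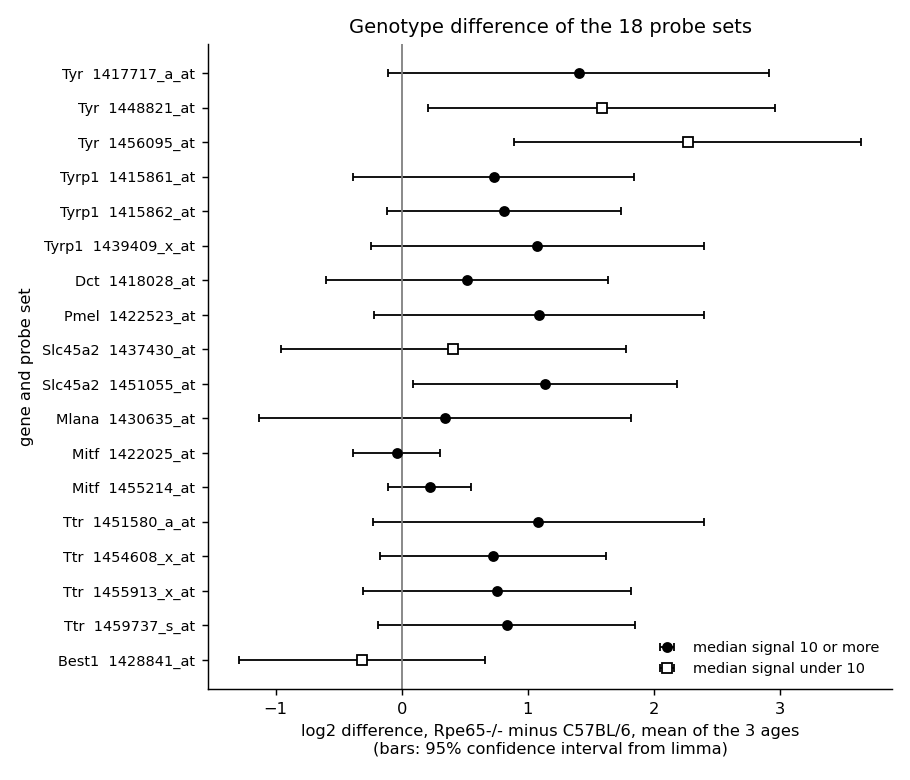
Log2 difference, Rpe65-/- minus C57BL/6, averaged over 3 ages for the 18 probe sets, with 95% confidence intervals from limma; open squares are dim probe sets. Points lie right of 0 for 16 probe sets, and the intervals of 3 of them (both dim Tyr probe sets and Slc45a2 1451055_at) exclude 0 before adjustment.

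The count of 0 changed when any 1 of the control retinas of 2 months was left out, most without retina 10. Without control retina 10 at 2 months 9 of 18 probe sets passed, all higher in knockouts: Pmel, 2 each of Tyr and Tyrp1, and all 4 of Ttr. The Pmel difference was then 1.63 and that of Ttr 1454608_x_at 1.12. Without control retina 11 or 9 of that age, 1 Tyr probe set passed in each case. The share of all probe sets that passed without these retinas is not given, so these counts cannot be set against it. Without retinas 9 and 11 together, which had the lowest signals, 0 passed and the differences turned to -0.39 for Dct, -0.15 for Tyrp1, -0.55 for Mlana and -0.07 for Ttr. Read from Xist with Y-linked genes, 8 knockout retinas were male and 1 female, and among controls 3 were male and 6 female, and with sex as a covariate 0 of 18 passed. The median difference of the 18 was then 1.47, against 0.79 without the covariate. With it Ttr went from 0.72 to 1.37, Pmel from 1.09 to 1.84, Slc45a2 from 1.14 to 2.08 and Best1 from -0.31 to -1.31. The part of sex and of the low control retinas in these values was not tested further.

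At single ages the counts past the threshold were also 0 of 18. The share of all probe sets was 1.15% at 2 months, 1.01% at 4 months and 0.688% at 6 months, and 4, 1 and 0 member probe sets had an unadjusted limma p under 0.05. These tests used a spread pooled over all 6 groups, the wide controls of 2 months included. For Ttr 1451580_a_at at 6 months the SE was 1.06, while the SDs at that age were 0.10 in knockouts and 0.43 in controls. Fits on the arrays of 1 age alone also gave 0 of 18, with lowest limma adjusted p-values of 0.119, 0.196 and 0.295. The median log2 difference of the members was 1.10 at 2 months, 0.98 at 4 months and 0.29 at 6 months. Signals of the 3 retinas per genotype did not overlap for 1 member at 2 months, Mitf 1422025_at, which was lower in knockouts, as were 9.95% of all probe sets. The log2 difference there was -0.996 ± 0.28 (SE, limma adjusted p = 0.136). It passed without control retina 14 or 24 at 4 months, with adjusted p-values of 0.0173 and 0.0467. Without control retina 10 it was not among the 7 member probe sets that passed at 2 months, which were all higher in knockouts. The share of all probe sets that passed in these fits without 1 retina is not given.

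At 4 months the knockouts lay above all controls for 5 of 18 member probe sets, against 7.69% of all probe sets. These were Tyr 1448821_at and 1456095_at and 3 of the 4 Ttr probe sets. At 6 months it was 6 of 18, against 7.89% of all, and these were the same Tyr probe sets, Slc45a2 1451055_at and 3 Ttr probe sets. Ttr 1451580_a_at read 2593, 2834 and 2959 in the knockouts at 6 months and 1035, 1726 and 1743 in the controls. A test of whether the genotype difference changed with age (a moderated F-test in limma) passed for 0 of 18, where 0.0111% of all probe sets did. Only Mitf 1422025_at had an unadjusted p under 0.05, at 0.00324 (limma adjusted p = 0.796).

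Ages were compared over the mean of both genotypes. From 2 to 4 months 0 of 18 passed, beside 0.00222% of all probe sets, and from 2 to 6 months 0 of 18, beside 1.09%. Unadjusted limma p-values were under 0.05 for 11 of 18 in each comparison, against 7.63% and 15.3% of all probe sets. Median log2 differences were 1.598 and 1.84. Dct was higher at 4 than at 2 months by 1.68 ± 0.64 (limma adjusted p = 0.598), and Ttr 1454608_x_at by 1.52 ± 0.51 (limma adjusted p = 0.55). Without control retina 10 at 2 months, 5 and 11 member probe sets passed, all higher at the later age. The share of all probe sets that passed without that retina is not given, so these counts cannot be set against it.

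Because the control retinas of 2 months spread so widely, each genotype was also fitted on its own 9 arrays, a comparison chosen after the data were seen. In knockouts all 4 Ttr probe sets rose from 2 to 4 months, and these 4 were the only ones of 18 to pass, where 0.0644% of all probe sets passed and were higher. The log2 difference was 2.78 ± 0.16 for 1451580_a_at, which read 280, 397 and 351 at 2 months and 2343, 2272 and 2350 at 4 months (SE, limma adjusted p = 0.00589). It was 1.38 ± 0.14 for 1454608_x_at (limma adjusted p = 0.0346). From 2 to 6 months the same 4 probe sets passed, beside 0.0422% of all higher, with 3.04 ± 0.16 for 1451580_a_at. Dct in knockouts was higher at 4 than at 2 months by 1.49 ± 0.62, which did not pass (limma adjusted p = 0.526).

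Between 4 and 6 months 0 of 18 passed in knockouts, where 0% of all probe sets did. In controls 0 of 18 passed from 2 to 4 months, beside 0.00666% of all probe sets, and 0 of 18 from 2 to 6 months, beside 0.0244%. The Ttr difference there was 1.66 ± 0.96 and 2.36 ± 0.96 for 1454608_x_at. Whether the change with age differed between the genotypes did not pass in the F-test given above. Without single knockout arrays the Ttr difference from 2 to 4 months was 2.64 to 2.89 for 1451580_a_at and 1.31 to 1.45 for 1454608_x_at, and from 2 to 6 months 2.90 to 3.16 and 1.42 to 1.57, while fewer calls were made. From 2 to 4 months 0 probe sets passed without knockout retina 25 or 31 at 4 months, and 1 without retina 33 at 4 months, retina 3 at 2 months or retina 6 at 6 months. It was 2 without retina 1 or 2 at 2 months or retina 4 at 6 months. From 2 to 6 months 0 passed without retina 6 at 6 months, 1 without retina 3 at 2 months, any 1 retina of 4 months, or retina 4 or 5 at 6 months, and 2 without retina 1 at 2 months.

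Further pigment epithelium genes were read beside the members. Of 16 measured, Krt18, a keratin of simple epithelia, rose in knockouts by 0.60 ± 0.14 on the log2 scale, averaged over ages (SE, limma adjusted p = 0.0236). Rpe65 fell by 5.96 ± 0.73 (limma adjusted p = 0.000207), and the other 14 did not pass, beside 4.27% of all probe sets called in this comparison. The median difference of these 16 was 0.62. Without control retinas 11 and 14, which had the lowest 5' against 3' actin signals, Krt18 no longer passed (0.59, limma adjusted p = 0.0751), nor without control retinas 9 and 11 at 2 months (0.45, limma adjusted p = 0.16) or with sex as a covariate (0.66, limma adjusted p = 0.0946). Rpe65 passed in each. With sex as a covariate Rrh, an opsin-like gene of the pigment epithelium, passed (0.67, limma adjusted p = 0.0452), against 0.47 and an adjusted p of 0.0693 in limma without it.

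Within knockouts, 3 of these 16 genes passed with Ttr from 2 to 4 months, all higher: Rdh5 and Rgr, a dehydrogenase and an opsin of the retinoid cycle, and Lrat, which makes the retinyl esters that Rpe65 uses. Of all probe sets 0.0644% were called higher there. Without single knockout arrays 0 to 5 of the 16 passed: 0 without retina 25 or 31 at 4 months, 1 (Lrat) without retina 1 or 3 at 2 months, 33 at 4 months or 6 at 6 months, 2 without retina 2 at 2 months and 5 without retina 5 at 6 months. Their median difference was 1.11 to 1.27 in these fits, against 1.13 with all 9 arrays. Rgr in knockouts read 123, 188 and 136 at 2 months, then 1096, 1049 and 1176 at 4 months. In controls it read 830, 19.6 and 34.0 at 2 months and 102, 387 and 975 at 4 months. The low values lay in the same control retinas, 9 and 11, as those of Dct and Ttr. The 16 genes summed to 1806 to 1967 in the knockouts at 2 months and to 4275 to 4570 at 4 months. Their part in the Ttr result was not tested.

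Of 20 further melanosome and melanocyte genes, Rab27a, which tethers melanosomes for transport, rose in knockouts by 0.63 ± 0.15 (SE, limma adjusted p = 0.0275), and the others did not pass, beside 4.27% of all probe sets called in this comparison. The median difference was 0.03. Rab27a did not pass without control retinas 11 and 14 (0.57, limma adjusted p = 0.103), without control retinas 9 and 11 at 2 months (0.47, limma adjusted p = 0.208) or with sex as a covariate (0.71, limma adjusted p = 0.0959). The most highly read of this list, Mreg, Myo5a, Lyst and Dtnbp1, had differences of -0.08, -0.10, -0.08 and 0.21.

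Likeness to the members was described by each probe set's r with the mean of the 9 genes over 18 arrays, group means removed, among 20616 probe sets that name 1 other gene and are not dim. The points share their arrays and their scaling, so no p is given. The 12 genes most like the mean were Timp3 (r = 0.99), Clic6 (0.95), Col8a1 (0.95), Oca2 (0.94), Bmp4 (0.94), Ptgds (0.94), Tlcd4 (0.94), Sult1c1 (0.93), Bdh2 (0.93), Rdh5 (0.93), Calml4 (0.92) and Kcnj13 (0.92). Oca2 is a melanosome membrane protein and Kcnj13 a potassium channel of the pigment epithelium. The deposited ratio of Timp3, a metalloproteinase inhibitor, was 0.166 and 0.180 in control retinas 9 and 11 at 2 months, the 2 lowest values, and 2.41 in knockout retina 33, the highest.

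Among the lists, the median r with the mean of the members was 0.79 for 16 further pigment epithelium genes and 0.19 for 20 further melanosome genes. It was 0.32 for 7 connective tissue genes, 0.28 for 5 smooth muscle genes of iris and ciliary body, 0.27 for 16 lens genes, 0.00 for 9 vessel genes, -0.21 for 2 blood genes and -0.39 for 7 rod genes. Over all probe sets that were not dim it was -0.05. In the genotype comparison averaged over ages, 4.27% of all probe sets were called in either direction. Rod genes were lower in knockouts for 4 of 7 there (Nrl, Pde6b, Rom1 and Cnga1), with a median difference of -0.35 over the 7. Of 16 lens genes 0 passed, and their median difference was -2.15, with -0.51 at 2 months, -3.17 at 4 months and -3.08 at 6 months. Of 9 vessel genes 1 passed, Kdr, at 0.69 ± 0.16 (SE, limma adjusted p = 0.0248), and 0 of the 7 connective tissue, 5 smooth muscle and 2 blood genes. Without control retinas 9 and 11 at 2 months neither Kdr (0.66, limma adjusted p = 0.115) nor any of the 7 rod genes passed, and the rod median was -0.31. With sex as a covariate Kdr did not pass (0.56, limma adjusted p = 0.213), and 1 rod gene, Nrl, did, at a rod median of -0.35. Without control retinas 11 and 14, 2 of the 7 rod genes passed, Nrl and Rom1, at a rod median of -0.30. Connective tissue genes summed to 31.9 to 252 over the arrays, with knockout retina 3 at 2 months highest. Of this list, Col1a1 and Col3a1 were under the array median in all 18 arrays. Dcn was not, and ranged from 0.586 in control retina 14 to 37.4 in knockout retina 33, both at 4 months. Its r with the mean of the members was 0.47.

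**Figure D5:**
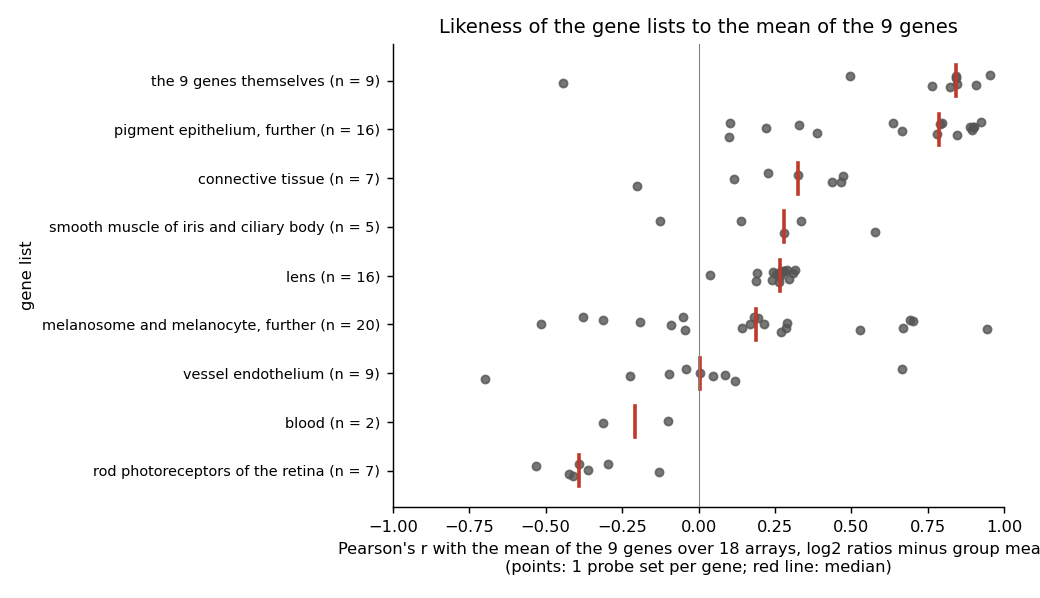
Pearson's r of each gene, by its probe set of highest mean signal, with the mean of the 9 genes over 18 arrays after group means were removed; points are genes, red lines are list medians. The 16 further pigment epithelium genes centre at 0.79 and the 7 rod genes at -0.39. Each of the 9 genes themselves is set against the mean of the other members.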

How the data were processed

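The authors deposited ratios on a linear scale, 1 per probe set and array. The submitters' processing notes name RMA for 18 samples and GCOS for 16, with no version, and the summarisation step is not settled by the values. From the deposited values, each ratio was read as a signal in steps of 0.1, scaled to a common array median and divided by the probe set's median over 18 arrays, or by 10 where that was lower (dim probe sets, 4 of the 18 members). Values under 0.01 had been set to 0.01. This reading recovered 100% of divisors. The 64 control probe sets were left out. Of the rest, 34945 named 1 gene, 932 several and 9160 none.

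The log2 of the deposited ratios was fitted with limma 3.58.1 (R 4.3.3) as 6 group means, with 12 residual degrees of freedom and Benjamini-Hochberg adjustment over 45037 probe sets. The fit was also run on simulated data with independent noise, of 1 SD per probe set in all groups. Those data lack the unequal spread and the shared movement of these genes, so that run does not bear on them. Pair correlations used exact permutations within groups (Python 3.11.15, numpy 2.4.6). Other software was data.table (1.17.8), pandas 2.3.3 and matplotlib 3.10.9. Alternatives were quantile normalization, array centring, log2(signal + 16), a trended and robust prior, leaving out dim probe sets, sex as a covariate, the retina number as a random block, and left-out arrays. The number of arrays limits the precision.

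Named genes were the members, Rpe65, list genes past the threshold with at most 4 more of highest signal, and the 12 most like the members, besides genes on which a count of 5 or fewer fell. The members and lists were chosen with earlier results of these data known.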

Additional observations from a re-analysis of the deposited data

How the results depend on the processing

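Every count of member probe sets named here has 0 as its value in the report, except where given. For the alternatives in this paragraph the share of all probe sets that passed is not given. For the genotype difference averaged over ages it was 1 with quantile normalization, 2 with log2(signal + 16), 1 with the trended and robust prior, 1 without control retinas 11 and 14, and 0 to 9 when single arrays were left out. At 2 months it was 1 with dim probe sets left out and 1 without control retinas 11 and 14 (Mitf 1422025_at, lower, in both), and 0 to 7 without single arrays. At 4 months it was 1 with log2(signal + 16). From 2 to 6 months it was 5 with dim probe sets left out, 6 with log2(signal + 16) and 3 with the trended and robust prior, and 0 to 11 without single arrays. From 2 to 4 months it was 0 to 5. Alternatives chosen after the data were seen gave 4 (mean of the ages), 2 (4 months) and 1 (6 months) with a sex covariate on log2(signal + 16), and 2 at 4 months without control retinas 9 and 11.

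Within knockouts alone, the 4 calls from 2 to 4 months became 0 to 4 and the 4 from 2 to 6 months 0 to 3 without single arrays, and 7 from 2 to 6 months with log2(signal + 16). In controls 0 to 1 passed. The 7 gene pairs became 16 with log2(signal + 16), 21 with group means left in, 15 with probe sets averaged per gene, and 2 to 13 without single arrays. Differences that changed sign were Mlana at -0.37 without the 2 knockouts of highest lens signal and -0.067 to 0.79 when single arrays were left out, and Best1 at 0.043 without control retinas 11 and 14. Without control retinas 9 and 11, Tyrp1 was -0.15, Dct -0.39, Mlana -0.55, Best1 0.03 and Ttr -0.067. The causes were not tested. The retina numbers 1, 2 and 3 occur both in knockouts at 2 months and in controls at 6 months, groups of different genotype and age that no comparison sets against each other alone. Deviations of same-numbered retinas had r = -0.07, 0.05 and 0.14. These values do not settle whether such retinas share more than a number. With the retina number as a random replicate block (consensus correlation 0.152), chosen after the data were seen, 0 of 18 passed in each of the 7 comparisons. Signals near the floor, as for Best1 and the dim Tyr and Slc45a2 probe sets, limit what their differences can show.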
